A study of Mus musculus with 10 samples.

Results

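The collagen chains were followed through an RNA-seq comparison of bisphenol S (BPS) with its vehicle. They were chosen by symbol, as all genes named Col, a number, a and a number, after the transcripts of each gene had been summed. The rule found 44 genes among 32903, of which 11 encode fibrillar chains, 9 basement membrane chains, 9 FACIT chains (fibril-associated collagens with interrupted triple helices) and 15 other chains. In all, 37 collagen genes had enough counts to be tested, among 14597 tested genes. The rule reads symbols only, but the collagens were taken up with earlier results of these data known.

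The cells were preadipocytes, the precursors of fat cells, taken from inguinal subcutaneous fat of male wild-type mice (WT C57 BL6). The 5 control libraries came from cells given DMSO, the solvent, and the 5 treated libraries from cells given 2.5 µM BPS, a structural analogue of bisphenol A, in the same solvent. Library codes in the labels run through DMSO first and BPS second, so a batch that followed this order and the treatment cannot be told apart. The labels leave out whether replicates came from different animals or only different dishes, so p-values measure only the spread between these libraries.

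Collagens are made of 3 polypeptide chains wound into a triple helix. Fibrillar chains build the fibres of connective tissue, minor fibrillar and FACIT chains sit within or on those fibres, and type IV collagen forms the mesh of basement membranes. In fat, the matrix is remodelled as precursors become adipocytes, and each mature adipocyte is wrapped in a basement membrane rich in type IV and type VI collagen.

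Collagen transcripts made up 7.84 ± 0.169% of the counts placed in genes in DMSO libraries and 7.89 ± 0.32% in BPS libraries (mean ± SD, 5 each). The DMSO libraries stood at 7.78, 7.77, 8.09, 7.91 and 7.64% and the BPS libraries at 7.37, 8.23, 8, 7.83 and 7.99%, in order of replicate number. The groups overlapped, and BPS replicates 1 and 2 were the lowest and the highest of the 10 libraries. Fibrillar chains held 6.16 ± 0.162% in DMSO and 6.17 ± 0.276% in BPS. Basement membrane chains held 0.744 ± 0.0117% and 0.776 ± 0.0224%, FACIT chains 0.117 ± 0.0037% and 0.125 ± 0.00777%, and the other chains 0.818 ± 0.0108% and 0.813 ± 0.0188%. Only 3 genes, Col1a1, Col1a2 and Col3a1, supplied 68.6 to 70.2% of collagen counts, depending on the library.

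Levels of different genes are compared per kilobase of transcript, as CPM (counts scaled to a common depth) divided by length. In DMSO, Col1a2 and Col1a1 stood at 3699 ± 67.4 and 3679.8 ± 110 CPM per kilobase (SD, n = 5), closer together than their spread, and Col3a1 followed at 2284 ± 116. These encode the chains of type I and type III collagen, the main fibres of soft connective tissue. The order then ran through Col6a1 (763 ± 13.7), Col6a2 (565 ± 12.5), Col5a2 (529.9 ± 15.6), Col15a1 (480.4 ± 7.32), Col4a1 (428 ± 8.61), Col5a1 (355 ± 6.21), Col4a2 (300.1 ± 5.37) and Col6a3 (186 ± 2.74), each in CPM per kilobase. Below these came Col16a1 at 79.5, Col8a1 at 66, Col12a1 at 57.8 and Col5a3 at 55.6 CPM per kilobase. The plot of levels per length shows this order for the tested chains.

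**Figure D1:**
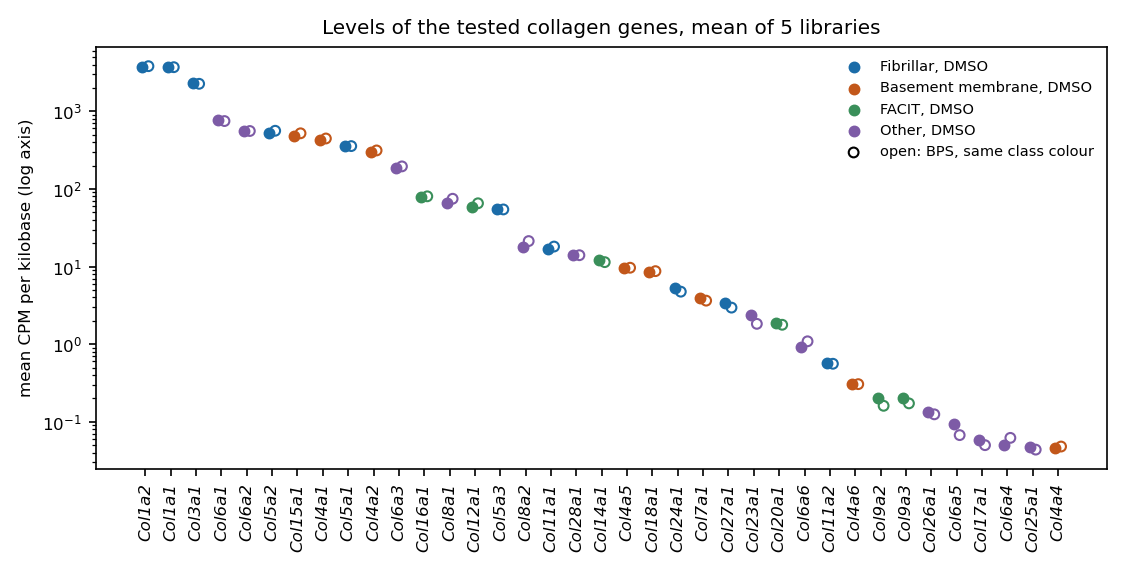
Mean level of the 37 tested collagen genes on the y axis, in CPM per kilobase of transcript on a log axis, ordered along the x axis by the DMSO level. Filled points are DMSO and open points BPS (mean of 5 libraries each), coloured by class; levels run from 3699 CPM per kilobase for Col1a2 in DMSO to under 1 for the scarcest chains, and the points of most genes lie on top of each other.

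The remaining 7 chains were too scarce to test. Counts per library were 2 to 9 for Col10a1, 4 to 13 for Col13a1, 0 to 5 for Col19a1, 0 to 2 for Col22a1, 1 to 7 for Col2a1 and 5 to 18 for Col4a3. Col9a1 had 0 counts in each library, which allows a level of up to 0.0755 to 0.0849 CPM, counting error only. Col2a1, Col9a1 and Col10a1 encode cartilage collagens. Of 6 markers of cartilage cells, Matn1 was at 0, 3 were tested and 0 were called by edgeR (0 at an unadjusted p under 0.05). Their summed level was 42.4 to 48.8 CPM in DMSO and 41.6 to 46.8 CPM in BPS, nearly all of it from Sox9, a transcription factor, at 44.6 ± 2.46 and 43.2 ± 1.7 CPM. Matn3 and Comp were under 1 CPM.

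Few collagen genes differed between BPS and DMSO, and the differences were small. Of the 37 tested, 3 rose (Col8a1, Col15a1 and Col11a1) and 2 fell (Col23a1 and Col24a1) at an adjusted p under 0.05 in edgeR's quasi-likelihood test, Benjamini-Hochberg adjusted over all 14597 genes. That is 13.5% of the tested collagens, against a background of 4.88% of all genes tested (3.06% higher and 1.82% lower). The 447 higher genes were 62.8% of the calls in the whole table, but 334 of 728 calls were higher (45.9%) when totals alone set the scaling. The libraries of the groups did not overlap for 4 collagens (the called ones except Col11a1), where 6.9% of all genes did not overlap. At an unadjusted p under 0.05 there were 12 collagens of 37, against 18.8% of all genes.

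Signs were mixed. The fold change, on a log2 scale and positive where BPS was higher, was above 0 for 19 collagens (50.2% of all genes were above 0) and below 0 for 18 (above 0 for 14 of 37 with library size alone), with a median of 0.004 against 0.000 for all genes. By class, 1 of 10 tested fibrillar genes rose and 1 fell (median -0.005), 1 of 8 basement membrane genes rose (median 0.039), 0 of 6 FACIT genes were called (1 at an unadjusted p under 0.05, median -0.091), and 1 of 13 other genes rose and 1 fell (median -0.021). In bulk RNA, fewer cells of a type and less RNA per cell cannot be told apart. The plot of fold changes by class gives the value and error of each gene.

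**Figure D2:**
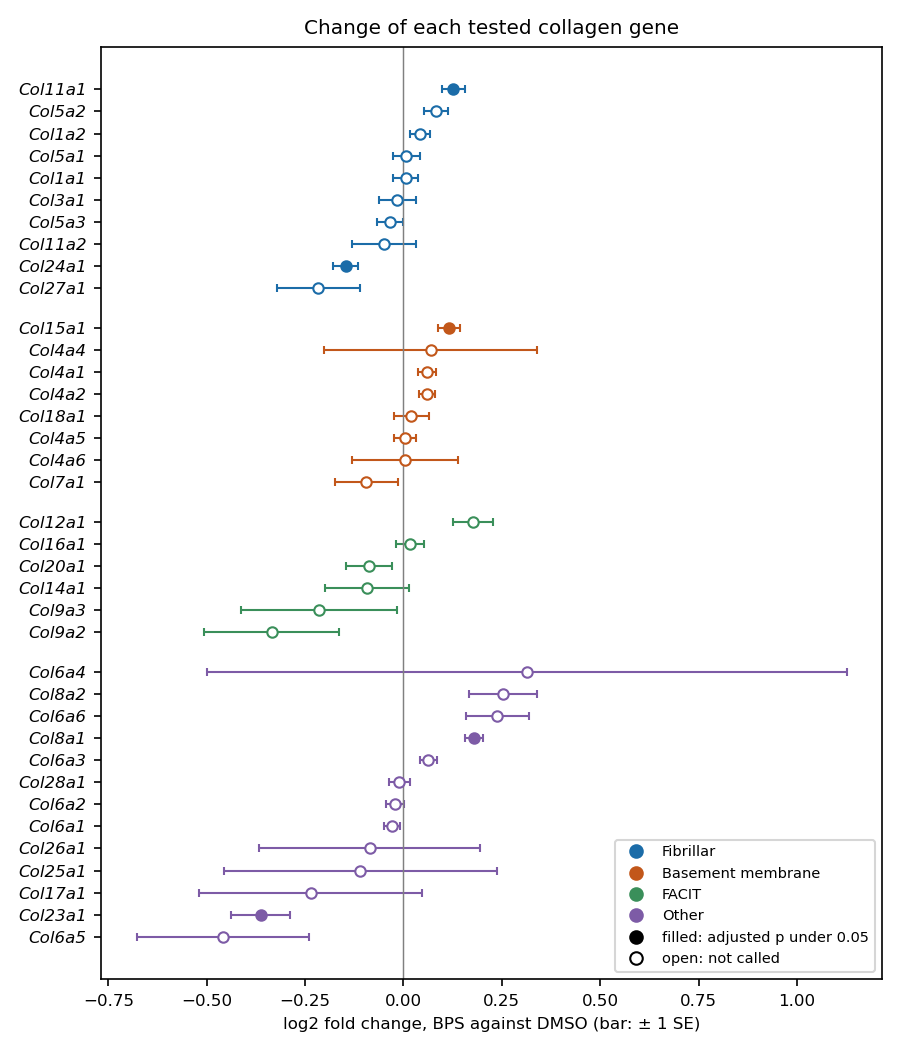
Log2 fold change of BPS against DMSO (x axis) for each of the 37 tested collagen genes (y axis), grouped and coloured by class, with bars of 1 standard error (SE). Filled points are the 5 genes called at an adjusted p under 0.05; Col8a1, Col15a1 and Col11a1 lie right of 0, Col23a1 and Col24a1 left of 0, and the widest bars belong to genes under 1 CPM.

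The chains of the major fibres did not pass the test. Col1a1, the alpha-1 chain of type I collagen, was measured at 21318, 21836, 22767, 22067 and 21119 CPM in DMSO and at 20276, 23107, 22349.7, 21589.9 and 22224 CPM in BPS. The BPS values spread on both sides of the DMSO values, and the log2 fold change was 0.01 (SE 0.03, 95% interval -0.06 to 0.07, edgeR adjusted p = 0.951). Col1a2, which supplies the other chain of type I collagen, stood at 19646, 19606, 20407, 19744 and 19504 CPM in DMSO. In BPS it stood at 19013, 21367, 20571, 20214 and 20648 CPM, with 3 libraries above the highest DMSO value and 1 below the lowest. The log2 fold change was 0.04 (SE 0.03, 95% interval -0.02 to 0.1, edgeR adjusted p = 0.441).

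Col3a1, the chain of type III collagen, had 12649, 12335, 13546, 13103 and 11895 CPM in DMSO and 11152, 13491, 12854, 12479 and 12848 CPM in BPS. The groups overlapped, with BPS replicate 1 below all other libraries. In log2 terms the change was -0.02 (SE 0.05, 95% interval -0.12 to 0.09, edgeR adjusted p = 0.903).

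Among the minor fibrillar chains, which are built into fibres and limit their diameter, Col11a1 rose. It was at 128.4, 124, 122.8, 134.9 and 125.2 CPM in DMSO and at 131.4, 138, 144.2, 140.3 and 140.3 CPM in BPS. DMSO replicate 4 lay above BPS replicate 1, and otherwise the groups were apart. The fitted log2 fold change was 0.13 (SE 0.03, edgeR adjusted p = 0.034). Leaving out 1 library at a time kept it in 2 of 10 fits (without BPS replicate 1 and without DMSO replicate 4), with adjusted p of 0.0137 to 0.0851 by edgeR. With curated RefSeq transcripts only, leaving out predicted ones, the direction turned, to -0.17 (edgeR adjusted p = 0.686).

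Col24a1, a minor fibrillar chain described in bone and cornea, fell. It had 38.8, 38, 37.1, 36.7 and 37.4 CPM in DMSO and 33.9, 32.5, 35.8, 34.9 and 32.7 CPM in BPS. The 5 BPS values lay below the 5 DMSO values. Its log2 fold change was -0.15 (SE 0.03, edgeR adjusted p = 0.0188), on 1131 to 1484 counts per library. Without DMSO replicate 2 the adjusted p was 0.0508, and with curated transcripts only it was 0.267, at a log2 fold change of -0.34.

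The type V chains, which nucleate type I fibres, did not pass the test. Col5a2 averaged 3511 ± 103 CPM in DMSO and 3718 ± 167 CPM in BPS, a log2 fold change of 0.08 (SE 0.03, edgeR adjusted p = 0.155). Col5a1 averaged 2980.4 ± 52.2 and 2995 ± 169.7 CPM (0.01, edgeR adjusted p = 0.94), and Col5a3 340.5 ± 7.49 and 333 ± 17.5 CPM (-0.03, edgeR adjusted p = 0.644). Col27a1 averaged 26.2 ± 4.75 CPM in DMSO and 22.5 ± 0.979 CPM in BPS (-0.22, SE 0.11, edgeR adjusted p = 0.302). Without DMSO replicate 1 its log2 fold change was -0.31 and it was called. Col11a2 stood at 3.51 ± 0.223 and 3.39 ± 0.294 CPM (edgeR adjusted p = 0.811).

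The basement membrane chains held 1 called gene, Col15a1. Type XV collagen carries heparan and chondroitin sulfate chains and links basement membranes to nearby fibres. Col15a1 was at 2521, 2438, 2525, 2476 and 2461 CPM in DMSO and at 2528, 2875, 2681, 2714 and 2656 CPM in BPS. The groups did not overlap, but BPS replicate 1 was only just above the highest DMSO library. The log2 fold change was 0.11 (SE 0.03, edgeR adjusted p = 0.0368). Leaving out 1 library kept the call in 2 of 10 fits, those without BPS replicate 1 or BPS replicate 2, with adjusted p of 0.00723 to 0.0892 by edgeR. With curated transcripts only the log2 fold change was 0.25 and the call was lost (edgeR adjusted p = 0.107). GENCODE annotation places an antisense gene, Gm12426 (18.1 CPM), over Col15a1. The library kit was directional, but the strand setting of the counting is not known. Whether reads of the pair were kept apart is therefore not known either.

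Type IV collagen, the mesh of the basement membrane, is made here mostly from Col4a1 and Col4a2. Col4a1 was at 2933, 2803, 2829.8, 2799 and 2803 CPM in DMSO and at 2857, 3105, 2932, 2964 and 2909.9 CPM in BPS. Apart from DMSO replicate 1, the DMSO values were below each BPS value. Col4a2 was at 1992, 1925, 1943, 1913 and 1905 CPM in DMSO and at 1962, 2108, 1994, 2024 and 1991 CPM in BPS. It showed the same order, with DMSO replicate 1 inside the BPS range. The log2 fold changes were 0.06 (SE 0.02) for each, with adjusted p of 0.156 and 0.129 by edgeR. GENCODE models of these opposite-strand genes overlap.

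The other basement membrane chains were scarcer. Col4a5 stood at 62.9 ± 1.25 CPM in DMSO and 63.1 ± 2.3 in BPS. Col18a1, the source of endostatin, stood at 48.2 ± 1.3 and 48.9 ± 3.48 CPM, and Col7a1, of the anchoring fibrils of skin, at 36 ± 2.24 and 33.7 ± 4.25 CPM. Col4a6 and Col4a4 lay at 2.03 ± 0.461 and 0.461 ± 0.189 CPM in DMSO. None of these 5 passed the test, with adjusted p of 0.587 to 0.991 by edgeR. In this class 7 of 8 fold changes were above 0, but only 5 of 8 with scaling by library size alone, and 4 to 7 when 1 library was left out.

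Of 7 markers of mural cells, the contractile cells on small vessels that also make basement membrane, 2 passed the test, against 4.88% of all genes. All 7 had fold changes above 0, against 50.2% of all genes. Their summed level was 71.2 to 78.3 CPM in DMSO and 84.1 to 91.6 CPM in BPS, without overlap. Des, encoding desmin, rose from 13.2 ± 0.5 to 21 ± 2.02 CPM (log2 fold change 0.66, edgeR adjusted p = 0.000106). Cspg4 rose from 39.1 ± 1.22 to 43.5 ± 2.63 CPM (0.16, edgeR adjusted p = 0.0467), and its call was lost in 8 of 10 fits that left out 1 library. These 2 genes made most of the difference in the sum. The other 5, Rgs5, Kcnj8, Abcc9, Notch3 and Myh11, did not pass the test (edgeR adjusted p 0.358 to 0.936). Kcnj8 and Abcc9, which define pericytes, were at 0.295 and 1.21 CPM in DMSO. The part of these cells in the collagen values was not tested.

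No FACIT gene passed the test. Col12a1, whose chain coats type I fibres, had 655.1, 698.1, 694.4, 613.2 and 665.2 CPM in DMSO and 659.3, 780.1, 782.6, 740.2 and 797.5 CPM in BPS. Of the BPS libraries, 4 lay above all DMSO libraries and replicate 1 lay among them. In log2 terms the change was 0.18 (SE 0.05, edgeR adjusted p = 0.0711). Without BPS replicate 1 it was 0.22 (SE 0.04, edgeR adjusted p = 0.00718), and DESeq2's Wald test gave an adjusted p of 0.0138 with all libraries.

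Col16a1 stood at 432.6, 404.7, 411, 401.5 and 418.6 CPM in DMSO and at 399.7, 457, 404.7, 402.9 and 426.9 CPM in BPS. The groups overlapped, with a log2 fold change of 0.02 (SE 0.04, edgeR adjusted p = 0.87). It turned to -1.56 with curated transcripts only, which held 0.365% of the gene's counts in DMSO. Col14a1, another coat of type I fibres, stood at 71.7, 72.5, 91.5, 78.1 and 80.2 CPM in DMSO and at 54.2, 81.4, 77.6, 70.3 and 85.9 CPM in BPS. The groups overlapped here too (log2 fold change -0.09, SE 0.11, edgeR adjusted p = 0.712). Col20a1, at 9.48 ± 0.661 and 8.91 ± 0.422 CPM, and Col9a2 and Col9a3, under 1 CPM, had fold changes below 0 that did not pass the test (edgeR adjusted p 0.384 to 0.631).

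Among the other chains, the network collagen Col8a1 rose. Type VIII collagen forms hexagonal sheets under endothelia and in vessel walls. Col8a1 was at 339.5, 345, 344.1, 325.8 and 330.2 CPM in DMSO and at 380.9, 374.1, 376.8, 375.3 and 399.8 CPM in BPS. The 5 BPS values lay well above the 5 DMSO values, with replicate 5 highest. The fitted log2 fold change was 0.18 (SE 0.02, edgeR adjusted p = 0.00115), on 11825 to 15188 counts per library. It was called under each of 19 alternatives, with log2 fold changes of 0.16 to 0.19 and adjusted p up to 0.0138.

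Its partner chain Col8a2 averaged 77.3 ± 8.39 CPM in DMSO and 92.1 ± 10.3 CPM in BPS (log2 fold change 0.25, SE 0.09, edgeR adjusted p = 0.129). The groups overlapped. Without BPS replicate 1 it was 0.32 (edgeR adjusted p = 0.0263). Markers of endothelial cells, which also make type VIII collagen, were not called: of 8 tested, 0 passed in edgeR (0 at an unadjusted p under 0.05), and their summed level was 18.7 to 24.7 CPM in DMSO and 18.2 to 24.1 CPM in BPS.

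Col23a1, which encodes a collagen anchored in the plasma membrane, fell. It was at 12.7, 11.6, 14, 14.6 and 13.5 CPM in DMSO and at 10.1, 10.9, 10.6, 11.2 and 8.88 CPM in BPS. The groups did not overlap, with the highest BPS value close under the lowest DMSO value. Its log2 fold change was -0.36 (SE 0.07, edgeR adjusted p = 0.0182), on 321 to 556 counts per library. It was called under each of 19 alternatives, with log2 fold changes of -0.41 to -0.31 and adjusted p up to 0.0455. The other transmembrane chains tested, Col17a1 and Col25a1, averaged 0.329 and 0.319 CPM in DMSO, on 4 to 17 counts per library, and were not called (edgeR adjusted p 0.728 and 0.91).

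Type VI collagen forms beaded microfilaments around cells. Its first chain, Col6a1, was at 3115, 3100, 3155, 3213 and 3067 CPM in DMSO and at 2929, 3160.4, 3107, 3060.5 and 3083 CPM in BPS. Col6a2 was at 2596, 2597, 2645, 2722 and 2579 CPM in DMSO and at 2449, 2678, 2629, 2590 and 2601 CPM in BPS. The groups overlapped for both genes, and the log2 fold changes were -0.03 (SE 0.02) and -0.02 (SE 0.02), with adjusted p of 0.5 and 0.697 by edgeR. Col6a3, whose chain carries the C-terminal fragment called endotrophin, was at 1888, 1926, 1855, 1866 and 1873 CPM in DMSO and at 1868, 2023, 1957, 2002 and 1980.2 CPM in BPS. Again 4 BPS libraries were above all DMSO libraries and replicate 1 was not. The log2 fold change was 0.06 (SE 0.02, edgeR adjusted p = 0.113), and 0.08 without BPS replicate 1 (edgeR adjusted p = 0.0132).

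The type VI chains Col6a6, Col6a5 and Col6a4 were scarce. Col6a6 averaged 8.12 ± 0.258 and 9.59 ± 1.23 CPM (log2 fold change 0.24, edgeR adjusted p = 0.123). Col6a5 averaged 0.86 ± 0.191 and 0.627 ± 0.181 CPM (-0.46, edgeR adjusted p = 0.289), and Col6a4 had 0 to 30 counts per library (edgeR adjusted p = 0.89). Col28a1 stood at 59.9 ± 1.94 and 59.4 ± 1.59 CPM, and Col26a1 under 1 CPM (edgeR adjusted p 0.886 and 0.912). The plot of single libraries shows the 5 called genes with Col12a1.

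**Figure D3:**
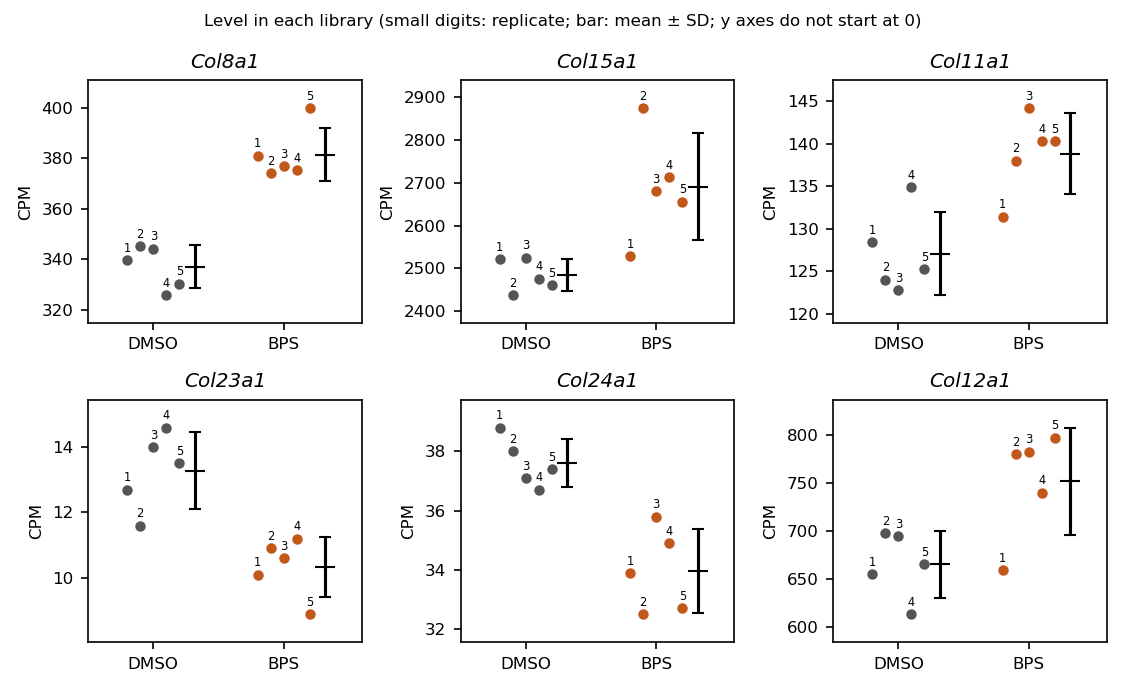
Level of the 5 called collagen genes and of Col12a1 in each library, in CPM on the y axis (axes do not start at 0), with DMSO and BPS side by side. Points are libraries marked with their replicate number and bars are means ± SD; groups are separate for Col8a1, Col15a1, Col23a1 and Col24a1 and overlap for Col11a1 and Col12a1, where BPS replicate 1 is the lowest BPS library.

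Several collagen values turned on 1 library. Over the 16 collagens with a mean of at least 100 CPM, BPS replicate 1 was the lowest BPS library for 15 (Col8a1 being the exception) and BPS replicate 2 the highest for 13. The median over these 16 genes of log2 CPM relative to the DMSO mean was -0.03 in BPS replicate 1, 0.11 in replicate 2, 0.05 in replicates 3 and 4, and 0.04 in replicate 5. DMSO libraries lay between -0.02 and 0.02. Without BPS replicate 1, 9 collagens were called, against 5.27% of all genes: the 5 above with Col12a1, Col5a2 (log2 fold change 0.11, edgeR adjusted p = 0.0303), Col6a3 and Col8a2. Leaving out another library gave 2 to 4 calls: 2 without DMSO replicate 2 and 3 without DMSO replicate 3 or 5 or BPS replicate 3, 4 or 5. Col8a1 and Col23a1 were called in each of these fits. The heat map of the abundant chains shows the libraries side by side.

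**Figure D4:**
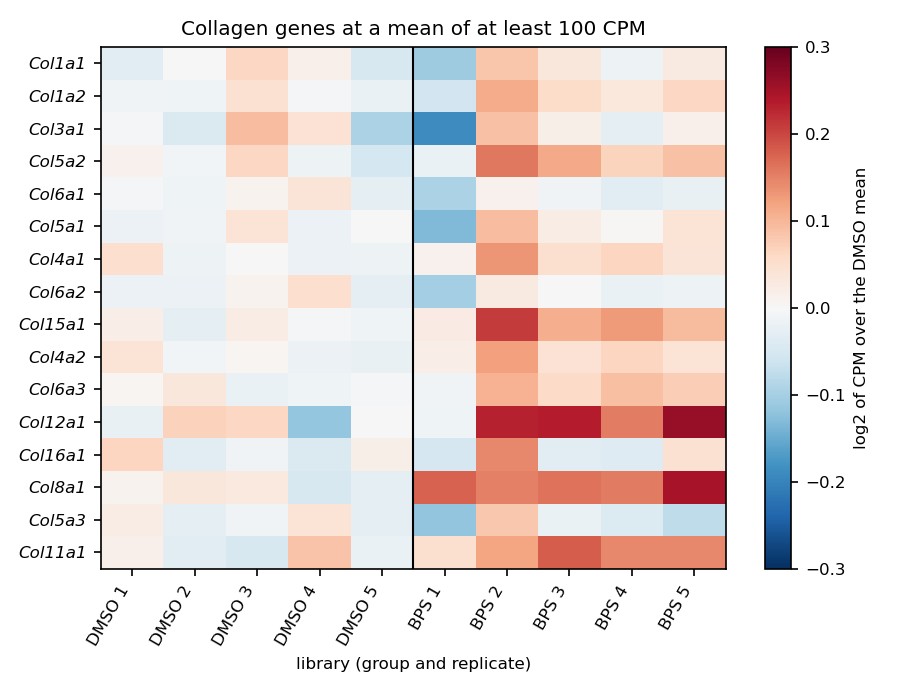
The 16 collagen genes at a mean of at least 100 CPM (rows) in the 10 libraries (columns), coloured by log2 of CPM over the DMSO mean from -0.3 (blue) to 0.3 (red). BPS replicate 1 is blue or pale for most genes, BPS replicate 2 is red for most, and Col8a1 is red in all 5 BPS libraries.

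For these 16 abundant chains, 12 fold changes were above 0, 9 with scaling by library size alone and 9 to 13 when 1 library was left out. The median was 0.050. By edgeR 3 of them were called (18.8%), all higher, against 12.4% of the 2035 genes at this level, whose median was 0.011 and of which 60.4% were above 0. None of the 8 collagens under 1 CPM was called (0 at an unadjusted p under 0.05 by edgeR), and at 0 to 40 counts per library small changes were not detectable at this depth.

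Many collagens are built from chains in fixed proportion, so the ratio of chains was compared within each library. The 9 ratios were of summed estimated counts. The ratio is free of the scaling between libraries. Of the 9, 2 differed after Benjamini-Hochberg adjustment, both without overlap. Both were at the smallest p that an exact permutation test of 5 against 5 allows, 0.00794. A single ratio at this p would not have passed among 9, so each call depends on the other. Col5a1 to Col5a2 was 0.8318, 0.8488, 0.8376, 0.8469 and 0.8816 in DMSO and 0.7849, 0.811, 0.7972, 0.8117 and 0.8221 in BPS. Its geometric mean went from 0.849 to 0.805, a log2 difference of -0.08 (adjusted exact permutation p = 0.0357). With curated transcripts only, and with exact version matching, it was -0.041 and not called (adjusted exact permutation p = 0.339). In DMSO the curated transcript of Col5a1 held 33.6% of the gene's counts and that of Col5a2 held 100%. Col6a3 to Col6a1 was 0.6063, 0.6214, 0.5882, 0.5806 and 0.6106 in DMSO and 0.6377, 0.6402, 0.6299, 0.6542 and 0.6424 in BPS. Its geometric mean went from 0.601 to 0.641, a log2 difference of 0.09 (adjusted exact permutation p = 0.0357). Under the same alternatives the log2 difference stayed at 0.092. The call was lost (adjusted exact permutation p = 0.0635) because Col5a1 to Col5a2 no longer shared the smallest p.

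With 4 libraries against 5 the smallest exact p is 0.0159. In each such fit the adjusted exact permutation p of both ratios was 0.0714, except without BPS replicate 3. There these ratios and Col1a1 to Col1a2 had 0.0476. These adjusted values follow from how many ratios shared the smallest p, so they do not judge either ratio alone. For Col1a1 to Col1a2 the log2 difference was -0.04 (exact permutation p = 0.0238, adjusted 0.0714) and for Col11a1 to Col5a1 it was 0.12 (0.0397, adjusted 0.0893). Col4a1 to Col4a2, the 2 chains of the most common type IV trimer, had the least varying ratio of the 9: 1.456 to 1.473 in DMSO and in BPS alike, with a log2 SD of 0.008 and 0.007 (exact permutation p = 0.889). Col6a1 to Col6a2 was nearly as tight, at 1.191 and 1.185 (geometric means, log2 SD 0.009 and 0.008, exact permutation p = 0.167). The ratios Col5a3 to Col5a1, Col8a1 to Col8a2 and Col4a5 to Col4a6 had exact permutation p of 0.222, 0.5 and 0.913. The plot of chain ratios sets them side by side.

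**Figure D5:**
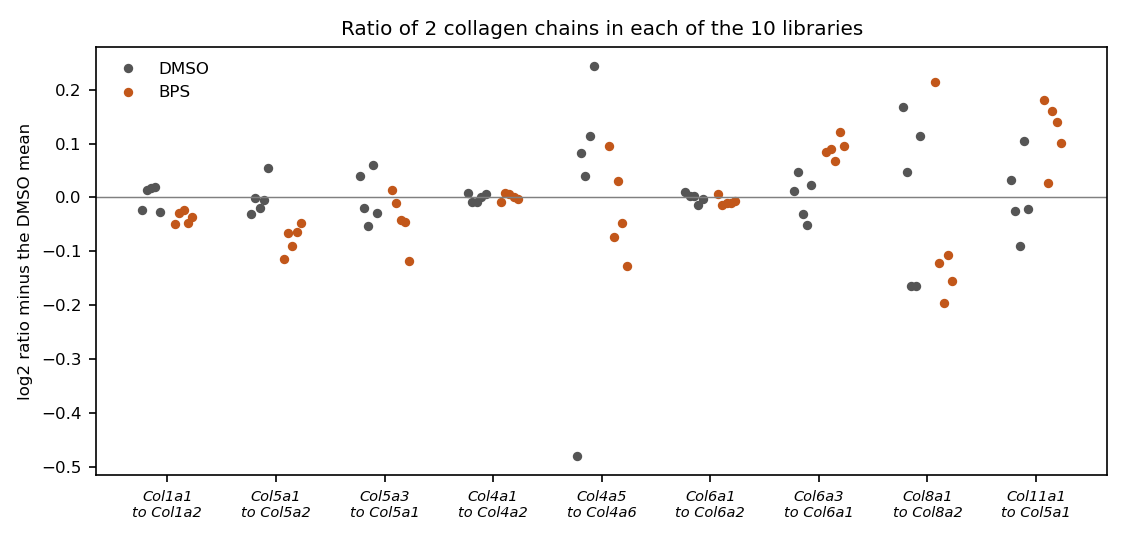
Log2 ratio of 2 chains in each library minus the DMSO mean (y axis) for 9 pairs (x axis), with DMSO points in grey and BPS points in orange. Points for Col4a1 to Col4a2 and Col6a1 to Col6a2 lie closest to 0, those for Col5a1 to Col5a2 and Col6a3 to Col6a1 are separate between groups, and DMSO replicate 1 lies far below the rest for Col4a5 to Col4a6.

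Summing over transcripts can hide differences between them. Of 192 deposited collagen transcripts, 74 were tested, and 1 was called, the single tested transcript of Col8a1 (log2 fold change 0.18, edgeR adjusted p = 0.0165), where 0.335% of all 37588 transcripts were called. At an unadjusted p under 0.05 by edgeR there were 16 of the 74. The share of all transcripts at this level was not counted, so this number shows neither an excess nor a lack. Shares are of the counts of all deposited transcripts of the gene. Col11a1 was carried by a predicted transcript with 77.4 ± 3.24% in DMSO and 81.8 ± 2.93% in BPS (log2 fold change 0.21). Its tested curated transcript held 22 ± 3.29% and 17.8 ± 3.42% (-0.16). For Col15a1 the predicted transcript held 77.7 ± 1.27% and 75.5 ± 1.85% (0.07) and the curated one 21.8 ± 1.22% and 24 ± 1.83% (0.26). None of these 4 transcripts was called, and a difference between transcripts of 1 gene was not tested. Counts of similar transcripts are estimates of how shared reads divide.

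Promoter windows are shown for the 5 called genes and for Col4a1, whose start lies beside that of Col4a2. They are RefSeq sequences of build GRCm38.p6, from 250 bases before to 50 after the annotated start, 5′ to 3′ along the gene, and 35 of the 44 collagens had such a window (38 windows). Capitals mark the CCAAT box, the promoter element TATAAA, the box GGGCGG bound by Sp1-type factors, the core GCGTG bound by the aryl hydrocarbon receptor and hypoxia-inducible factors, and the AP-1 motif TGANTCA, searched on both strands. No base of the printed windows lies in more than 1 motif. A match is a description of letters, not a binding site. The windows are chr16:57754688-57754987 on the minus strand for Col8a1, chr4:47207762-47208061 on the plus strand for Col15a1, chr3:114030290-114030589 on the plus strand for Col11a1, chr11:51289670-51289969 on the plus strand for Col23a1, chr3:145292222-145292521 on the plus strand for Col24a1 and chr8:11312777-11313076 on the minus strand for Col4a1.
Col8a1: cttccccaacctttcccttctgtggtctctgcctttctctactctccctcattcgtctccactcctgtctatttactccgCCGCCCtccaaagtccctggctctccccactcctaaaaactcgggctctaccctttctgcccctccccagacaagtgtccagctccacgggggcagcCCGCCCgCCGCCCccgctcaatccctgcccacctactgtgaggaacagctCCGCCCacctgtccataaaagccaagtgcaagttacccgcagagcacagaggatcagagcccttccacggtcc
Col15a1: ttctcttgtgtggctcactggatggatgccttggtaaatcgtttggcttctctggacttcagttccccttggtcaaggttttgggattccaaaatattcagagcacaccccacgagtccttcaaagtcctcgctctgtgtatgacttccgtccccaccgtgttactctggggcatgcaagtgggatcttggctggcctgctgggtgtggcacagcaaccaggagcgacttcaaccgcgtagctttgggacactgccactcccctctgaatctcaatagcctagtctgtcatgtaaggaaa
Col11a1: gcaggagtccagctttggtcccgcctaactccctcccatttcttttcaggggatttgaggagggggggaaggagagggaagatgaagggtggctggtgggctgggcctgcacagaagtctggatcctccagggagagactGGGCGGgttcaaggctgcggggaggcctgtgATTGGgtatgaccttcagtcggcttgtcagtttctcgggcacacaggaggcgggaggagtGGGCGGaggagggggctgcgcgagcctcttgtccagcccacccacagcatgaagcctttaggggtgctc
Col23a1: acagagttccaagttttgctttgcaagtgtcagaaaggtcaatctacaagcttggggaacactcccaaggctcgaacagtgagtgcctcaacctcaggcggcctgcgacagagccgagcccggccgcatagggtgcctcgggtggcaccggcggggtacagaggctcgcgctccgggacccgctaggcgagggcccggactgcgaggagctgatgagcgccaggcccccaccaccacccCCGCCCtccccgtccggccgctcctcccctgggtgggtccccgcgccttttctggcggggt
Col24a1: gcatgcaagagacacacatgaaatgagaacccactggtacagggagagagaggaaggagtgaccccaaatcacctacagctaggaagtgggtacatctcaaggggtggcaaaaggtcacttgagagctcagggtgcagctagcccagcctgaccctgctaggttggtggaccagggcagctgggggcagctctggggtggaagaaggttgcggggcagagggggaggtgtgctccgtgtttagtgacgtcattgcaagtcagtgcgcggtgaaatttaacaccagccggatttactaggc
Col4a1: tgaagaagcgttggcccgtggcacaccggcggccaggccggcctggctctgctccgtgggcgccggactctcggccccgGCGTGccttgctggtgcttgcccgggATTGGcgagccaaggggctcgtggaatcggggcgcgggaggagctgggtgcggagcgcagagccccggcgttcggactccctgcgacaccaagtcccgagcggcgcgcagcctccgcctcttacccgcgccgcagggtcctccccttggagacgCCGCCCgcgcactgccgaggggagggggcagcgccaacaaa

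No searched motif was found in all 3 genes that rose. Col8a1 had 4 GGGCGG boxes on the opposite strand, the nearest ending 18 bases before the start, Col11a1 had 2 on its own strand and a CCAAT on the other, and Col15a1 had no match. Of the genes that fell, Col23a1 had 1 such box ending 6 bases before the start and Col24a1 had no match. Base composition was not compared between collagen windows and all windows. GGGCGG, which holds only G and C, was found in 60.5% of collagen windows and 35.7% of the 32851 windows of all genes. The others were found in 34.2 against 37.4% (CCAAT), 13.2 against 13.6% (TATAAA), 26.3 against 32.4% (GCGTG) and 2.63 against 7.81% (TGANTCA, in Col6a1 alone). Col4a1 and Col4a2 are transcribed in opposite directions from starts 21 bases apart, so their windows share 78 bases, and these are the pair with the least varying ratio above. Col4a5 and Col4a6 also lie head to head, with starts 1343 bases apart. Their ratio had a log2 SD of 0.279 in DMSO and 0.088 in BPS, with Col4a6 at 60 to 104 counts per library. Whether the position of the starts bears on the ratios was not tested.

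The genes that modify, secrete, cleave, bind and degrade collagen were looked at in a list of 54, of which 49 were tested. By edgeR 3 rose and 0 fell, 6.12% of those tested against 4.88% of all genes, with 28 fold changes above 0 and a median of 0.007; 15 had an unadjusted p under 0.05, and DESeq2's Wald test called 8 higher. Of 24 genes for modification, folding and secretion, 2 rose: P4ha3, a catalytic subunit of collagen prolyl 4-hydroxylase, and Fkbp10, a prolyl isomerase of the endoplasmic reticulum that assists collagen folding. P4ha3 went from 229.7 ± 2.95 to 239 ± 2.82 CPM (means ± SD over 5 libraries), or 0.06 in log2 fold change (edgeR adjusted p = 0.0459), a call that 1 of 10 fits without 1 library kept. Fkbp10 went from 392 ± 3.19 to 414 ± 8.72 CPM (0.08, edgeR adjusted p = 0.0185), and lost its call without BPS replicate 3 or DMSO replicate 2.

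Of 9 receptor and uptake genes tested, 1 rose. Itgb1, the beta chain shared by the collagen-binding integrins, went from 1610.5 ± 30.4 to 1701 ± 24.3 CPM (log2 fold change 0.08, edgeR adjusted p = 0.017), and was called in each of the 10 fits without 1 library. None of 8 genes for procollagen cleavage (2 at an unadjusted p under 0.05) and none of 8 for degradation (5 at an unadjusted p under 0.05) was called by edgeR. Among all genes, 18.8% had an unadjusted p under 0.05 by edgeR. The following 4 were chosen after their values were seen, as members just outside the threshold or with the largest fold changes. Serpinh1, the collagen chaperone HSP47, stood at 3240.4 ± 78.5 and 3394 ± 58.2 CPM (0.07, edgeR adjusted p = 0.062), and Itga11, a collagen-binding integrin chain, at 242 ± 8.84 and 272 ± 18.5 CPM (0.16, edgeR adjusted p = 0.0536). Pcolce2, an enhancer of procollagen cleavage, stood at 2.02 ± 0.184 and 1.57 ± 0.123 CPM (-0.37, edgeR adjusted p = 0.057). The collagenase Mmp13 stood at 0.588 ± 0.139 and 0.36 ± 0.133 CPM (-0.71, edgeR adjusted p = 0.149). Mmp13 does not stand for its group, as 4 of the 8 tested degradation genes had fold changes above 0 and 4 below. The far more abundant Mmp2 had the opposite sign, at 915 ± 35.4 and 968 ± 17.3 CPM (0.08, edgeR adjusted p = 0.0858).

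The labelled cell type was checked against markers. All 9 preadipocyte and fibroblast markers were tested, with a summed level of 15981 to 16738 CPM in DMSO and 16229 to 16559 CPM in BPS. Most of the sum came from Fn1 and Vim, at 9803 ± 313 and 3371 ± 47.8 CPM in DMSO, while Dpp4 was at 2.45 ± 0.288 CPM. Of the 9 markers, 5 had fold changes above 0 and 4 below. Thy1 (log2 fold change 0.19, edgeR adjusted p = 0.00129) and Cd34 (0.28, edgeR adjusted p = 0.000428) rose. Pdgfra stood at 904 ± 14.3 and 863 ± 22.8 CPM (edgeR adjusted p = 0.0777). Adipocyte markers summed to 0.41 to 0.736 CPM in DMSO and 0.39 to 0.82 CPM in BPS, with Lep at 0 and 1 of 7 tested. Macrophage markers summed to 13.8 to 21.4 and 14.9 to 23.2 CPM with Csf1r at 0, Schwann cell markers to 7.34 to 8.32 and 5.75 to 9.15 CPM, and epithelial markers to 0.206 to 0.383 and 0.162 to 0.448 CPM. Mesothelial markers summed to 9.11 to 11.1 and 10.9 to 12.7 CPM, with Upk3b at 0 and 2 of 5 tested. Of these Krt19 rose (0.27, edgeR adjusted p = 0.0367, lost in 6 of 10 fits without 1 library). Wt1 had the opposite sign, at 0.849 ± 0.12 and 0.569 ± 0.188 CPM (-0.59, edgeR adjusted p = 0.155). The part of these cells in the collagen values was not tested.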

How the data were processed

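Estimated counts of 107384 RefSeq transcripts in 10 libraries were deposited, made by the authors with kallisto 0.42.4 per the submitters' processing notes. The index, build and strand setting are not given in the sources used here. The libraries were made with a directional kit, per the labels' protocols. Totals ran from 37920689 to 42717227 estimated counts per library. Matching accessions without version to a RefSeq gene table (GRCm38.p6) placed 86722 transcripts in 32903 genes. The other 20662 transcripts, 6.9% of counts, stayed out. Gene sums were rounded to whole counts before testing, and 0 sample columns were unused.

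After filterByExpr, 14597 genes were tested with edgeR's quasi-likelihood method on TMM-scaled libraries (Benjamini-Hochberg adjustment, threshold 0.05). The standard error is the unshrunken log2 fold change over the root of F. Levels of single genes are CPM on the TMM-scaled size. Summed levels of marker lists are CPM on the total counts placed in genes, without TMM scaling. Lengths are those of the longest protein-coding GENCODE M21 transcript of each symbol. Chain ratios were tested by exact two-sided permutation tests. Software was edgeR 4.0.16, DESeq2 1.42.0 and limma 3.58.1 in R 4.3.3, and SciPy 1.17.1 in Python 3.11.15. The code was tested on simulated data.

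The named collagens are those called and the 3 most abundant of each class, given by library; the rest are given by means or ranges. The members, classes, pathway genes and markers were chosen with earlier results of these data known. Libraries with equal replicate numbers gave no clear sign of pairing: their deviations correlated at 0.1, 0.0038, -0.067, 0.072 and -0.078. These were not compared with libraries of unequal number, so they do not settle whether the numbers mark pairs. Chi-square per degree of freedom between replicates was 4.13 to 8.77, above sampling noise, so no pair was merged; this does not show whether libraries came from separate animals or cultures. Alternatives were DESeq2 size factors, library size alone, no filter, DESeq2's Wald test, limma-voom, a replicate block, exact version matching, curated transcripts only and leaving out each library. Removal of GC and length trends was chosen after seeing the data. Positions come from the RefSeq promoter table only.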

Additional observations from a re-analysis of the deposited data

Results flagged for a closer look

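In 5 of 74 groups of 5 values, 1 library stood apart from the other 4 by Dixon's criterion at the 95% level, where chance gives 3.7. In DMSO, Col1a2 was high in replicate 3, at 20407 CPM against 19504 to 19744 in the others. Col4a1 was high in DMSO replicate 1, at 2933 CPM against 2799 to 2829.8. Col4a6 was high in the same library, at 2.829 CPM against 1.676 to 1.977, on 60 to 104 counts over all libraries. In BPS, Col27a1 was low in replicate 2, at 20.8 CPM against 22.7 to 23.08. Col8a1 was high in BPS replicate 5, at 399.8 CPM against 374.1 to 380.9, and was called without that library too.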

How the results depend on the processing

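Of 695 refitted log2 fold changes of tested collagens, 613 kept their direction and side of the threshold and 48 changed sign. With curated transcripts only, 1 collagen was higher and 1 lower (202 and 109 genes in all), with exact version matching 1 and 1 (211 and 117), and with the replicate block 1 and 1 (234 and 140). Whether the replicate numbers mark pairs is not known, and the block called 0 collagen transcripts in place of 1 and 0 pathway genes. With GC and length trends removed 5 collagens were higher. DESeq2's Wald test called 8 pathway genes higher (566 genes in all), and library size alone 1 lower (394 genes in all). Under both exact matching and curated transcripts, the log2 difference of Col5a1 to Col5a2 was -0.041 (adjusted exact permutation p = 0.339). That of Col6a3 to Col6a1 stayed at 0.092 (adjusted exact permutation p = 0.0635), its call being lost with the tie at the smallest p. With curated transcripts Col11a1 to Col5a1 was -0.220. Causes of the other changes were not tested.

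These signs turned. With curated transcripts, log2 fold changes were -0.167 for Col11a1, -1.558 for Col16a1, -0.097 for Col18a1, -0.001 for Col1a1, 0.148 for Col28a1 and -0.884 for Col4a6. With exact matching they were -1.555 for Col16a1, -0.089 for Col18a1, 0.184 for Col28a1 and -0.881 for Col4a6. With library size alone they were -0.009 for Col1a1, -0.011 for Col4a5, -0.011 for Col4a6 and -0.008 for Col5a1. With GC and length trends removed they were -0.004 for Col1a1 and -0.005 for Col5a1. Only Col11a1 among these was called in the original fit.

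Leaving out 1 library gave 1 to 7 collagens higher, 1 to 3 lower, 282 to 464 genes higher, 161 to 310 lower, 1 to 6 pathway genes higher, 0 to 1 lower, and 0 to 2 collagen transcripts. Ratio differences ran from -0.043 to -0.031 (Col1a1 to Col1a2), -0.084 to -0.063 (Col5a1 to Col5a2), -0.001 to 0.003 (Col4a1 to Col4a2), -0.144 to 0.036 (Col4a5 to Col4a6) and 0.079 to 0.104 (Col6a3 to Col6a1). Fold changes that turned sign ran from -0.153 to 0.0 (Col14a1), -0.018 to 0.032 (Col16a1), -0.011 to 0.051 (Col18a1), -0.014 to 0.032 (Col1a1), -0.348 to 0.104 (Col25a1), -0.246 to 0.084 (Col26a1), -0.024 to 0.003 (Col28a1), -0.043 to 0.024 (Col3a1), -0.082 to 0.238 (Col4a4), -0.014 to 0.02 (Col4a5), -0.056 to 0.15 (Col4a6), -0.015 to 0.04 (Col5a1) and -0.011 to 0.76 (Col6a4), none of them called. Depth limits the chains under 1 CPM.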
